A study of Mus musculus with 2 samples.

Results

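Levels of 10 genes known from blood stem cells were followed in total RNA of mouse bone marrow megakaryocyte-erythroid progenitors (MEP), the cells that give rise to red cells and platelets. The genes were Cd34, Angpt1, Tek, Mecom, Hlf, Mllt3, Procr, Fgd5, Ly6a and Pdzk1ip1. They were taken by name and had been selected on their TPM, counts and TPM intervals in these same libraries, so their levels and ratios are a description. All 10 were found among the 43346 Ensembl gene rows, of which 21461 are nuclear protein-coding genes. The study holds 1 group of 2 libraries, biological replicates 1 and 2, from male C57BL/6J mice aged 5 to 6 weeks, with no treatment or genotype given. Each library started from 100 ng of RNA that had been depleted of ribosomal RNA. The size range given was 200 to 1000 for replicate 1 and 215 to 1000 for replicate 2. Both carry 1 and the same donor entry, and nothing in the labels says that the cells came from separate mice, so the spread between them may be technical. The sources used here do not give the gate by which the cells were sorted.

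Haematopoietic stem cells sit at the top of blood formation and are commonly recognised by surface proteins such as Sca-1 (Ly6a) and EPCR (Procr), held in a quiescent state by signals that include angiopoietin 1 acting on the receptor TEK, and kept self-renewing by transcription factors such as MECOM and HLF. As cells move toward the megakaryocyte and erythroid lineages, most of these genes are known to be turned down. MEP are commonly sorted as KIT-positive cells with no Sca-1 and little or no surface CD34. Whether these proteins served to choose the cells studied here is not known.

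The libraries held 39919858 expected counts (estimated reads per gene, not normalised) in replicate 1 and 48043009 in replicate 2. All 8 MEP marker genes, Gata1, Klf1, Kit, Gata2, Epor, Tfrc, Gfi1b and Car1, had at least 1 TPM (a level scaled for transcript length and to a fixed total) in each library. Their TPM summed to 957.3 in replicate 1 and 927.4 in replicate 2, of which Car1 alone held 723.14 and 707.62. Protein-coding genes took 25.55% of the TPM in replicate 1 and 20.57% in replicate 2, and the median log2 ratio of TPM plus 1 over those with a mean TPM of 1 or more, replicate 1 over replicate 2, was 0.27. Ratios were therefore taken from CPM (counts relative to the library total) scaled by the TMM method, as replicate 1 over replicate 2. Log2 CPM ratios and calls past 2-fold had 0.1 CPM added to each library. Fold values in CPM, and CPM ratios printed with a counting interval, had nothing added. With 1 group and 2 libraries there is no test, and ratios are called past 2-fold by size only. As a background for every list below, 39.4% of nuclear protein-coding genes reached 1 TPM in each library. Of those with at least 20 counts over both, 11.1% were past 2-fold and higher in replicate 1, and 9.84% in replicate 2.

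The 10 genes spanned from well expressed to undetected. Angpt1 and Mllt3 were the highest by mean TPM, Cd34, Pdzk1ip1 and Mecom reached 1 TPM in each library, Tek and Hlf did so in replicate 1, and Procr, Fgd5 and Ly6a stayed under 1 in both. In all, 5 of 10 reached 1 TPM in each library, against 39.4% of nuclear protein-coding genes. The median of their mean TPM was 1.65 (1.66 in replicate 1 alone and 0.94 in replicate 2 alone), against 0.20 over all nuclear protein-coding genes. The summed TPM of the 10 genes was 91.99 in replicate 1 and 50.07 in replicate 2, and Angpt1 and Mllt3 held 71.91% and 77.45% of these sums. In replicate 1 the order from high to low was Angpt1, Mllt3, Cd34, Tek, Mecom, Pdzk1ip1, Hlf, Procr, Fgd5 and Ly6a. The intervals that the authors give for each TPM (their level is not stated) overlapped in 5 of the 9 neighbouring pairs of that order, which were Tek and Mecom, Mecom and Pdzk1ip1, Pdzk1ip1 and Hlf, Procr and Fgd5, and Fgd5 and Ly6a. In replicate 2 the order was Mllt3, Angpt1, Pdzk1ip1, Mecom, Cd34, Tek, Hlf, Procr, with Fgd5 and Ly6a both at 0. There the intervals overlapped in 4 of 9 pairs, Mecom and Cd34, Tek and Hlf, Procr and Fgd5, and Fgd5 and Ly6a.

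**Figure D1:**
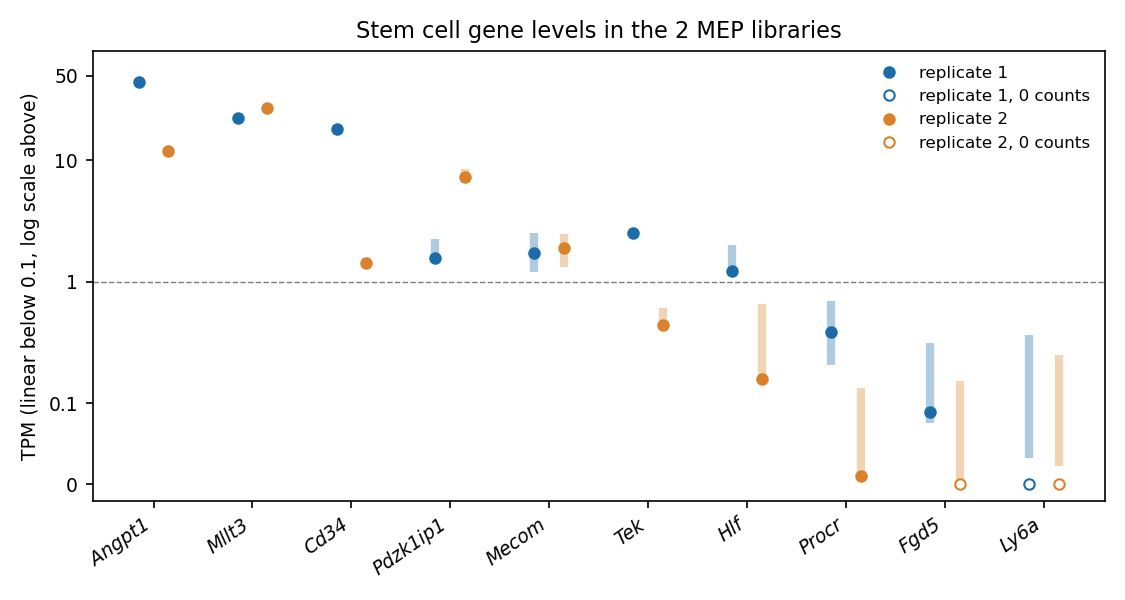
TPM of the 10 genes in replicate 1 (blue, left) and replicate 2 (orange, right), ordered by mean TPM, on a log scale that becomes linear below 0.1. Points are the deposited TPM, pale bars the authors' intervals, open circles a count of 0, and the dashed line a TPM of 1. The values of the libraries lie close together for Mecom and for Mllt3, though the intervals of Mllt3 are apart. Cd34, Angpt1, Tek and Hlf lie higher in replicate 1, and Pdzk1ip1 lies higher in replicate 2.

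Of the surface proteins, CD34, a sialomucin of stem and progenitor cells and of endothelium, had the largest ratio between the libraries among those of the 10 genes with counts in both and at least 20 over both. Cd34 (ENSMUSG00000016494.5, mm10 chr1:194938819-194961279, plus strand) had a TPM of 18.27 in replicate 1, with an authors' interval of 16.72 to 19.43, against 1.44 in replicate 2, with an interval of 1.31 to 1.588. Its mean TPM was 9.86 ± 11.9 (SD, n = 2), rank 3650 among nuclear protein-coding genes. It had 2570 counts in replicate 1 and 431 in replicate 2. In CPM it was 6.94-fold higher in replicate 1, with an exact binomial 95% interval of 6.27 to 7.71 that covers counting error only. In bulk RNA, fewer cells of a type and less RNA per cell cannot be told apart. The TPM ratio was 12.7-fold, larger than the CPM ratio, and the effective length that the authors' tables give the gene was 1541 bases in replicate 1 and 2229 bases in replicate 2.

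The counts of Cd34 were assigned to different transcripts in the libraries. Transcript values are estimates from short reads, and reads in shared exons are divided by a model. In replicate 1, Cd34-201 had 1375 counts, Cd34-202 had 920.2 and Cd34-203 had 254.4. In replicate 2, Cd34-201 had 430 of the 431 counts and the other coding transcript had 0. Cd34-203 is a 616-base transcript annotated as a target of nonsense-mediated decay. It held 9.90% of the gene's counts but 38.8% of its TPM in replicate 1. By TPM the leading transcript was Cd34-203 in replicate 1 and Cd34-201 in replicate 2, while by counts Cd34-201 led in both, with 53.5% and 99.8%. Cd34-201 and Cd34-202 share an exon (chr1:194959066-194959230) and then join different acceptors of the last exon. The splice changes the end of the protein, which is why both junctions are shown, as 12 bases of the shared exon followed by 15 bases of the last exon (plus strand, last exon from chr1:194959936 in Cd34-201 and from chr1:194959780 in Cd34-202, an acceptor 156 bases upstream). The capitals mark the stop codon that Cd34-202 meets after 12 coding bases of its last exon. The first protein has 382 amino acids and the second 325. A full-length and a truncated CD34 that differ in the cytoplasmic tail are known in mouse.
Cd34-201: ggagaaaggctgggtgaagacccttat
Cd34-202: ggagaaaggctggagctggaacctTGA

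The RefSeq promoter window of Cd34 (GRCm38.p6, chr1:194938571-194938870, plus strand, 250 bases before to 50 after the start) is shown because Cd34 had the largest CPM ratio among those of the 10 genes with counts in both libraries and at least 20 over both. Promoter windows were searched on both strands for the motif of GATA factors in the form AGATAA and in the further form with T in first place, TGATAA, for the E-box in its symmetric form CACGTG and in its open form CAGNTG, for the motif CCGGAAG of ETS factors and for the motif TGTGGT of RUNX factors, with matches printed in capitals, and no matches of different motifs overlapped. No match was found in the window of Cd34, which had 7 CpG, the median over all 32851 windows, whose median GC content was 52.7%.
Cd34: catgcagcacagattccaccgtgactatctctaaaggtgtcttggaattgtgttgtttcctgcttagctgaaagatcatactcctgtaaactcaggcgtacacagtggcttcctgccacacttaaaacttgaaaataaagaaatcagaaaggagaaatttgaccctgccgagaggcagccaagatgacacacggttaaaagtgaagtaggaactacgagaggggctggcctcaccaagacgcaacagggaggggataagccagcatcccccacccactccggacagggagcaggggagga

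Procr, the endothelial protein C receptor and a stem cell surface marker, was near the limit of counting. Procr (ENSMUSG00000027611.8, chr2:155751117-155755471, plus strand) had 10 counts and a TPM of 0.39 in replicate 1, against 1 count and a TPM of 0.01 in replicate 2. With nothing added, the CPM ratio was 11.6, with a counting interval of 1.66 to 505. With 0.1 CPM added, the log2 CPM ratio was 1.515, so the size depends on that choice. With fewer than 20 counts over both libraries, Procr was left out of the counts of genes past 2-fold. Ly6a, which encodes Sca-1, a glycosylphosphatidylinositol-anchored protein used to sort stem cells, had 0 counts in both libraries (ENSMUSG00000075602.6, chr15:74994877-74998031, minus strand). A count of 0 allows up to 3 counts, which would make 0.0584 TPM in replicate 1 and 0.0399 TPM in replicate 2. The authors' intervals for Ly6a reached higher, from 0.0323 to 0.364 TPM in replicate 1 and from 0.0225 to 0.251 TPM in replicate 2. Ly6a has close relatives in the same stretch of chromosome 15, and reads shared between such copies may be assigned to either, so its value is uncertain. Of 10 other Ly6 family genes, Ly6e stood at 74.11 TPM in replicate 1 and 91.99 TPM in replicate 2. That was the 1 gene of the list that reached 1 TPM in each, and Ly6c1, Ly6f, Ly6h, Ly6i and Gpihbp1 had 0 counts in both. Of the 3 with at least 20 counts, Ly6d and Ly6g were past 2-fold and higher in replicate 2. Both had 0 counts in replicate 1, against 20 and 29 in replicate 2, so their ratios depend on the 0.1 CPM added. The authors' TPM intervals of Ly6g overlapped.

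Angpt1, the secreted ligand of TEK, was among the most highly expressed of the 10 genes in both libraries. Angpt1 (ENSMUSG00000022309.8, chr15:42424723-42676977, minus strand) stood at 43.94 TPM in replicate 1 (interval 42.7 to 44.05) and 11.97 TPM in replicate 2 (interval 11.57 to 12.15), with 16181 and 6487 counts behind them. The mean TPM was 27.95 ± 22.6 (SD, n = 2), rank 1377. In CPM it was 2.90-fold higher in replicate 1, with a counting interval of 2.82 to 2.99. The tables list a single transcript, and its effective length of 4033 bases in replicate 1 and 4030 bases in replicate 2 was nearly the same. The TPM ratio was 3.67-fold.

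Tek encodes TIE2, the receptor tyrosine kinase that binds ANGPT1 on stem cells and endothelium. Tek (ENSMUSG00000006386.11, chr4:94739289-94874976, plus strand) stood at 2.53 TPM in replicate 1 (interval 2.36 to 2.79) and 0.44 TPM in replicate 2 (interval 0.396 to 0.612), from 972 and 255 counts. Its CPM was 4.44-fold higher in replicate 1, with a counting interval of 3.86 to 5.11. The ligand was above its receptor in both libraries, and the TPM of Angpt1 over that of Tek was 17.4 in replicate 1 and 27.2 in replicate 2. Tek-202 held 67.4% of the TPM of Tek in replicate 1 and all of it in replicate 2, with Tek-201 holding the rest. Of 17 further genes of angiopoietin signalling, 9 reached 1 TPM in each library, led by Itgb1 (an integrin subunit), Pik3r1 (the regulatory subunit of PI 3-kinase), Grb2 (an adaptor) and Akt1 (a kinase). Itgb1 stood at 48.23 TPM in replicate 1 and 35.38 TPM in replicate 2, and Pik3r1 had 26.28 and 24.83. The TPM of Grb2 was 19.38 in replicate 1 and 8.70 in replicate 2, and that of Akt1 was 11.54 and 15.48. Angpt4, Ptprb, Grb7 and Grb14 had 0 counts in both libraries, and the competing ligand Angpt2 had 20 counts in replicate 1 and 18 in replicate 2. Of the 13 with at least 20 counts, Dok2, an adaptor of TEK, was past 2-fold and higher in replicate 1, none was past 2-fold and higher in replicate 2, and the median log2 CPM ratio was -0.02.

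The Tek window (chr4:94739039-94739338, plus strand) is shown because Tek was higher in replicate 1, as its ligand was. Counted from the start base as 1, with the base before it as -1, it holds AGATAA at 37, a motif found in 11.2% of all windows, and it had 52.0% GC and 3 CpG. A match is a description of the letters and not a sign of binding.
Tek: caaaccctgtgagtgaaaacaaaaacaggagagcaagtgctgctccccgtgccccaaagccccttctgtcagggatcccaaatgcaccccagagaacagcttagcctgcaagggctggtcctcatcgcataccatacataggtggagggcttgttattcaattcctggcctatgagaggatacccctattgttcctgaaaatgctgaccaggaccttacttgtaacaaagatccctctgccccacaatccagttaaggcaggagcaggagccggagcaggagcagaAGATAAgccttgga

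Mecom, a zinc finger transcription factor (EVI1) that stem cells need for self-renewal, was low and much alike in both libraries. Mecom (ENSMUSG00000027684.12, chr3:29951296-30548008, minus strand) stood at 1.74 TPM in replicate 1 (interval 1.20 to 2.52) and 1.89 TPM in replicate 2 (interval 1.33 to 2.46), and these intervals overlapped. It had 139 counts in replicate 1 and 127 in replicate 2. The CPM ratio was 1.27, with a counting interval of 0.995 to 1.63, so it could not be told from 1 at this depth, and the direction differed between CPM, higher in replicate 1, and TPM, higher in replicate 2. The gene's effective length was 875 bases in replicate 1 and 499 bases in replicate 2. By TPM, Mecom-201, a transcript of 348 bases, led in both libraries with 76.2% and 72.4%, from 16 and 24 counts. By counts, Mecom-203 led in replicate 1 with 47.5% and Mecom-205, which has no annotated coding sequence, led in replicate 2 with 52.8%. Transcripts that begin within 1000 bases of the RefSeq start at chr3:30013204, the start of the shorter EVI1 form, had 0 counts in replicate 1 and 67 in replicate 2, and those within 1000 bases of the start at chr3:30509759, far upstream, had 23.1 counts in replicate 1 and 0 in replicate 2.

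Of 8 relatives and cofactors of MECOM, 6 reached 1 TPM in each library, led by the corepressor Ctbp1 at 28.29 in replicate 1 and 36.51 in replicate 2. The histone methyltransferase gene Ehmt2 followed with 22.29 TPM in replicate 1 and 15.60 TPM in replicate 2, the deacetylase gene Hdac1 with 20.70 and 15.77, and Suv39h1, another histone methyltransferase gene, with 18.19 and 18.12. Prdm16, the nearest relative of Mecom, stood at 0.59 TPM in replicate 1 and 0.18 TPM in replicate 2. Prdm1, with 30 counts in replicate 1 and 0 in replicate 2, was the 1 gene of this list past 2-fold.

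Hlf, a PAR bZIP factor of stem cells, was low and higher in replicate 1. Hlf (ENSMUSG00000003949.12, chr11:90336536-90390895, minus strand) stood at 1.24 TPM in replicate 1 (interval 1.13 to 2.00) and 0.16 TPM in replicate 2 (interval 0.158 to 0.657), from 422 and 114 counts. Its CPM was 4.31-fold higher in replicate 1, with a counting interval of 3.50 to 5.35. Hlf-201, which begins at the RefSeq start, had 93.6% of the counts in replicate 1 and all of them in replicate 2. In replicate 1, Hlf-201 stood at 0.80 TPM, and Hlf-204, with 27 counts and no annotated coding sequence, at 0.44 TPM. Hlf therefore reached 1 TPM in replicate 1 only with Hlf-204 included. The other PAR bZIP gene Tef stood at 3.85 TPM in replicate 1 and 2.75 TPM in replicate 2, Dbp had 1.78 and 1.31, and the related repressor Nfil3 had 0.24 and 0.18. None of these 3 was past 2-fold. The Hlf window (chr11:90390868-90391167, minus strand), shown beside those of Cd34 and Tek as another gene higher in replicate 1, had 67.3% GC and 30 CpG and holds an open E-box, read on the other strand, at -162. This form was found in 51.4% of all windows.
Hlf: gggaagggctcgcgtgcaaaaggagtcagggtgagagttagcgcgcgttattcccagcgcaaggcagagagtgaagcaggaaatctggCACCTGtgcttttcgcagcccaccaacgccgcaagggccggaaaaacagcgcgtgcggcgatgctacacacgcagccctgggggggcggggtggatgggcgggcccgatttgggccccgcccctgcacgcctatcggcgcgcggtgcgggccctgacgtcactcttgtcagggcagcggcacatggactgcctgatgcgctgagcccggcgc

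Mllt3, which encodes AF9, a reader of acylated histones in the super elongation and DOT1L complexes that is known to maintain human stem cells, had the CPM ratio nearest 1 of the 8 genes with at least 20 counts. Mllt3 (ENSMUSG00000028496.13, chr4:87769925-88033364, minus strand) had 4433 counts in replicate 1 and 5292 in replicate 2, and its CPM was 109 in replicate 1 and 112 in replicate 2. The CPM ratio was 0.975, with a counting interval of 0.937 to 1.02. Its TPM was 22.21 in replicate 1 (interval 20.96 to 23.59) and 26.81 in replicate 2 (interval 25.57 to 27.92), so TPM placed it higher in replicate 2 with intervals apart, while the scaled counts did not separate the libraries. The effective length was 2186 bases in replicate 1 and 1468 bases in replicate 2. The mean TPM was 24.51 ± 3.25 (SD, n = 2), rank 1558.

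The counts of Mllt3 fell into transcripts from a pair of start sites, and the share of the downstream start differed between the libraries. The 3 transcripts within 1000 bases of the downstream RefSeq start at chr4:87806323, chiefly the 794-base Mllt3-208, had 903 counts in replicate 1 and 1667 in replicate 2, or 20.4% and 31.5% of the gene. The 4 transcripts within 1000 bases of the upstream start at chr4:88033407, chiefly the 6069-base Mllt3-201, had 3426 and 3469 counts, or 77.3% and 65.5%. By TPM the downstream transcripts led in both, with 67.1% in replicate 1 and 81.1% in replicate 2, TPM being scaled by length. Mllt3-201 has 1707 coding bases and Mllt3-208 has 486. Both windows are shown because the counts divide between them. The upstream window (GRCm38.p6, chr4:88033358-88033657, minus strand) had 70.3% GC and 29 CpG and holds an open E-box at -202, and the downstream window (chr4:87806274-87806573, minus strand) had 44.7% GC and 4 CpG and holds another, read on the other strand, at -208.
Mllt3 upstream: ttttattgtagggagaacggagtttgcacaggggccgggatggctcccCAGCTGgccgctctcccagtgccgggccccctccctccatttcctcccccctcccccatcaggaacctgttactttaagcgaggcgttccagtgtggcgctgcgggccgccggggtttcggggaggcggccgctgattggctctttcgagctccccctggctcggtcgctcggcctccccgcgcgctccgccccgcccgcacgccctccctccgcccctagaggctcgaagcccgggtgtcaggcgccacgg
Mllt3 downstream: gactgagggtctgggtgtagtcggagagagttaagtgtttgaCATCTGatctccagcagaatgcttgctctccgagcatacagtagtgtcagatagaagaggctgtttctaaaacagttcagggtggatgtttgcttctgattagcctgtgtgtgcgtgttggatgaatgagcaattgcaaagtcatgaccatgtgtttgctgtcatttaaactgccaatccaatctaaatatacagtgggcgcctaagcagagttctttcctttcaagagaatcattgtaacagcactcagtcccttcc

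Of 14 partners of MLLT3, 13 reached 1 TPM in each library and none was past 2-fold in either direction. The highest were Ccnt1, the cyclin partner of CDK9, Mllt10, a DOT1L cofactor, and the elongation factors Ell2 and Aff4. Ccnt1 stood at 23.44 TPM in replicate 1 and 17.32 TPM in replicate 2, and Mllt10 had 19.08 and 17.25. The TPM of Ell2 was 15.86 in replicate 1 and 15.96 in replicate 2, and that of Aff4 was 11.99 and 8.42. The median log2 CPM ratio of the 14 was -0.13. Mllt1, the paralog that encodes ENL, stood at 3.30 TPM in replicate 1 and 3.75 TPM in replicate 2, and is named here after its values were seen.

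Fgd5 and Pdzk1ip1 are both used as reporter genes for stem cells in mice, and they differed between the libraries in opposite directions. Fgd5, an exchange factor for CDC42 that is also active in endothelium (ENSMUSG00000034037.10, chr6:91978878-92076004, plus strand), had 47 counts and a TPM of 0.09 in replicate 1, against 0 counts in replicate 2. Set against 3 counts in replicate 2, its CPM was 18.2-fold higher in replicate 1, which leaves out the counting error of replicate 1. The authors' TPM intervals of 0.0754 to 0.313 in replicate 1 and 0.00160 to 0.152 in replicate 2 overlapped. Of the other FGD genes and Cdc42, Cdc42 stood at 115.95 TPM in replicate 1 and 87.41 TPM in replicate 2. The TPM of Fgd3 was 1.40 in replicate 1 and 0.98 in replicate 2, that of Fgd6 was 1.01 and 0.62, and that of Fgd2 was 1.11 and 0.36. Of the 6 genes of this list, Fgd1 was past 2-fold and higher in replicate 1.

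Pdzk1ip1, which encodes the small membrane protein MAP17, was the 1 gene of the 10 past 2-fold and higher in replicate 2. Pdzk1ip1 (ENSMUSG00000028716.11, chr4:115088708-115093899, plus strand) stood at 1.58 TPM in replicate 1 (interval 1.46 to 2.27) and 7.35 TPM in replicate 2 (interval 6.55 to 8.44), from 96 and 471 counts. Its log2 CPM ratio, with 0.1 CPM added, was -2.03. With nothing added, its CPM was 4.21-fold higher in replicate 2, with a counting interval of 3.38 to 5.31. In replicate 1 all 96 counts were assigned to Pdzk1ip1-202. In replicate 2, Pdzk1ip1-201 had 223.3 counts, Pdzk1ip1-202 had 174.2 and Pdzk1ip1-203, which has no annotated coding sequence, had 73.5. The leading transcript differed between the libraries by counts and by TPM.

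Pdzk1ip1 lies next to Tal1, a master regulator of blood formation, on the same strand of chromosome 4. Tal1 (chr4:115056426-115071755) stood at 15.03 TPM in replicate 1 and 13.70 TPM in replicate 2, with a log2 CPM ratio of -0.20, and Stil, on its other side, had TPM of 2.94 and 3.37 and a ratio of 0.01. Cyp4x1, downstream of Pdzk1ip1, had 25 counts in replicate 1 and 0 in replicate 2. Pdzk1, whose protein binds MAP17, had 0 counts in both. The Pdzk1ip1 window (chr4:115088458-115088757, plus strand), shown because this gene went against the others, had 55.7% GC and 3 CpG. It holds CACGTG at -192, a motif found in 7.15% of all windows, and open E-boxes at -111, -81 and -33.
Pdzk1ip1: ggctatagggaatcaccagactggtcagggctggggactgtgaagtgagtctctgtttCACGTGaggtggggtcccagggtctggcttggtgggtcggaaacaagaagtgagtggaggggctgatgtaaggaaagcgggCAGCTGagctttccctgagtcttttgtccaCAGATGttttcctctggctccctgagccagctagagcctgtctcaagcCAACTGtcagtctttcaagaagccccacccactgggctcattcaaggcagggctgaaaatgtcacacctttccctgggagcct

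Of the 10 genes, 8 had at least 20 counts over both libraries, all but Procr and Ly6a. Cd34, Angpt1, Tek, Hlf and Fgd5 were past 2-fold and higher in replicate 1, against a background of 11.1% of the 11901 nuclear protein-coding genes with as many counts. Pdzk1ip1 was past 2-fold and higher in replicate 2, against 9.84%. Mecom and Mllt3 were within 2-fold. The median log2 ratio of the 8 genes was 1.80, the same with Fgd5 set against 3 counts in replicate 2, against -0.01 over all genes tested. The genes were chosen with these ratios known, so nothing is read from the shares. With 1 added to the deposited TPM in place of scaled CPM, 3 genes were past 2-fold and higher in replicate 1 (background 5.5%), and Hlf and Fgd5 were no longer among them. The authors' TPM intervals were apart and higher in replicate 1 for Cd34, Angpt1, Tek and Hlf of these 8, against a background of 55.7%, and apart and higher in replicate 2 for Mllt3 and Pdzk1ip1, against 17.6%. Of the 5 genes that reached 1 TPM in each library, 4 have more than 1 transcript, and 2 of these, Cd34 and Pdzk1ip1, had different leading transcripts by TPM, against 27.1% of 6363 genes with more than 1 transcript. The posterior mean TPM gave the same pair, against 27.0%. By counts the differing genes were Mecom and Pdzk1ip1, against 18.7%.

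**Figure D2:**
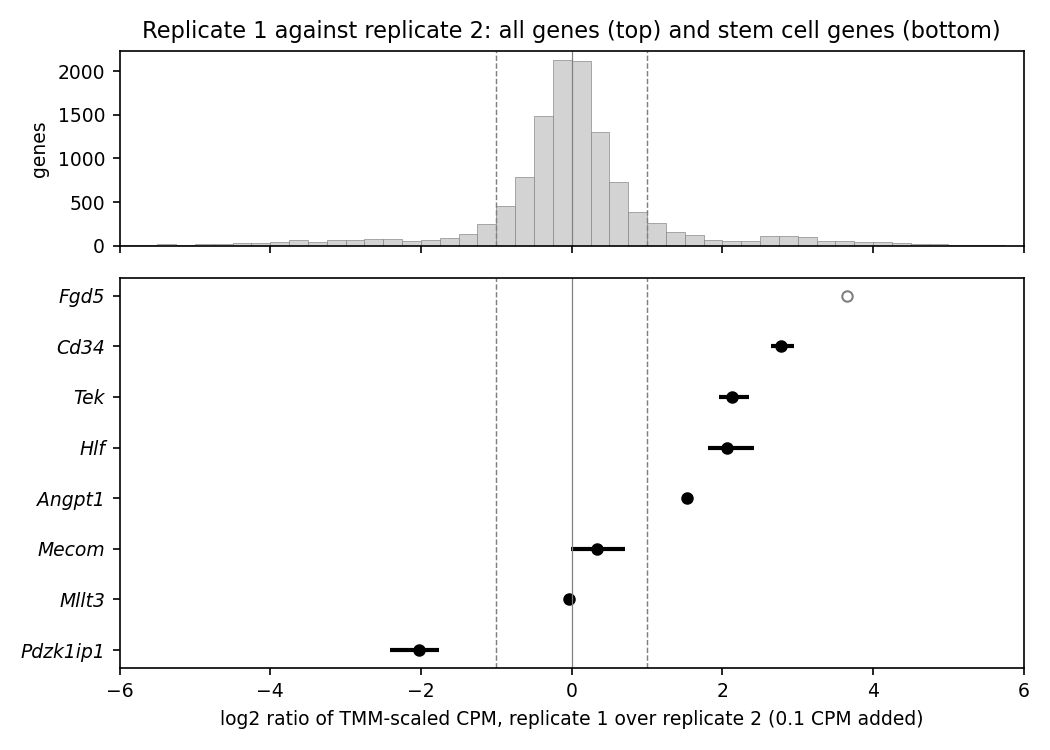
Log2 ratio of TMM-scaled CPM, replicate 1 over replicate 2, for all 11901 nuclear protein-coding genes with at least 20 counts (histogram, top) and for the 8 stem cell genes with as many counts (bottom). Points have 0.1 CPM added, and bars, which are exact 95% counting intervals, do not. Dashed lines mark 2-fold, and the open circle marks Fgd5, with 0 counts in replicate 2, whose place depends on the 0.1 CPM added. Cd34, Tek, Hlf and Angpt1 lie right of the upper line, Mecom and Mllt3 near 0 and Pdzk1ip1 left of the lower line.

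**Figure D3:**
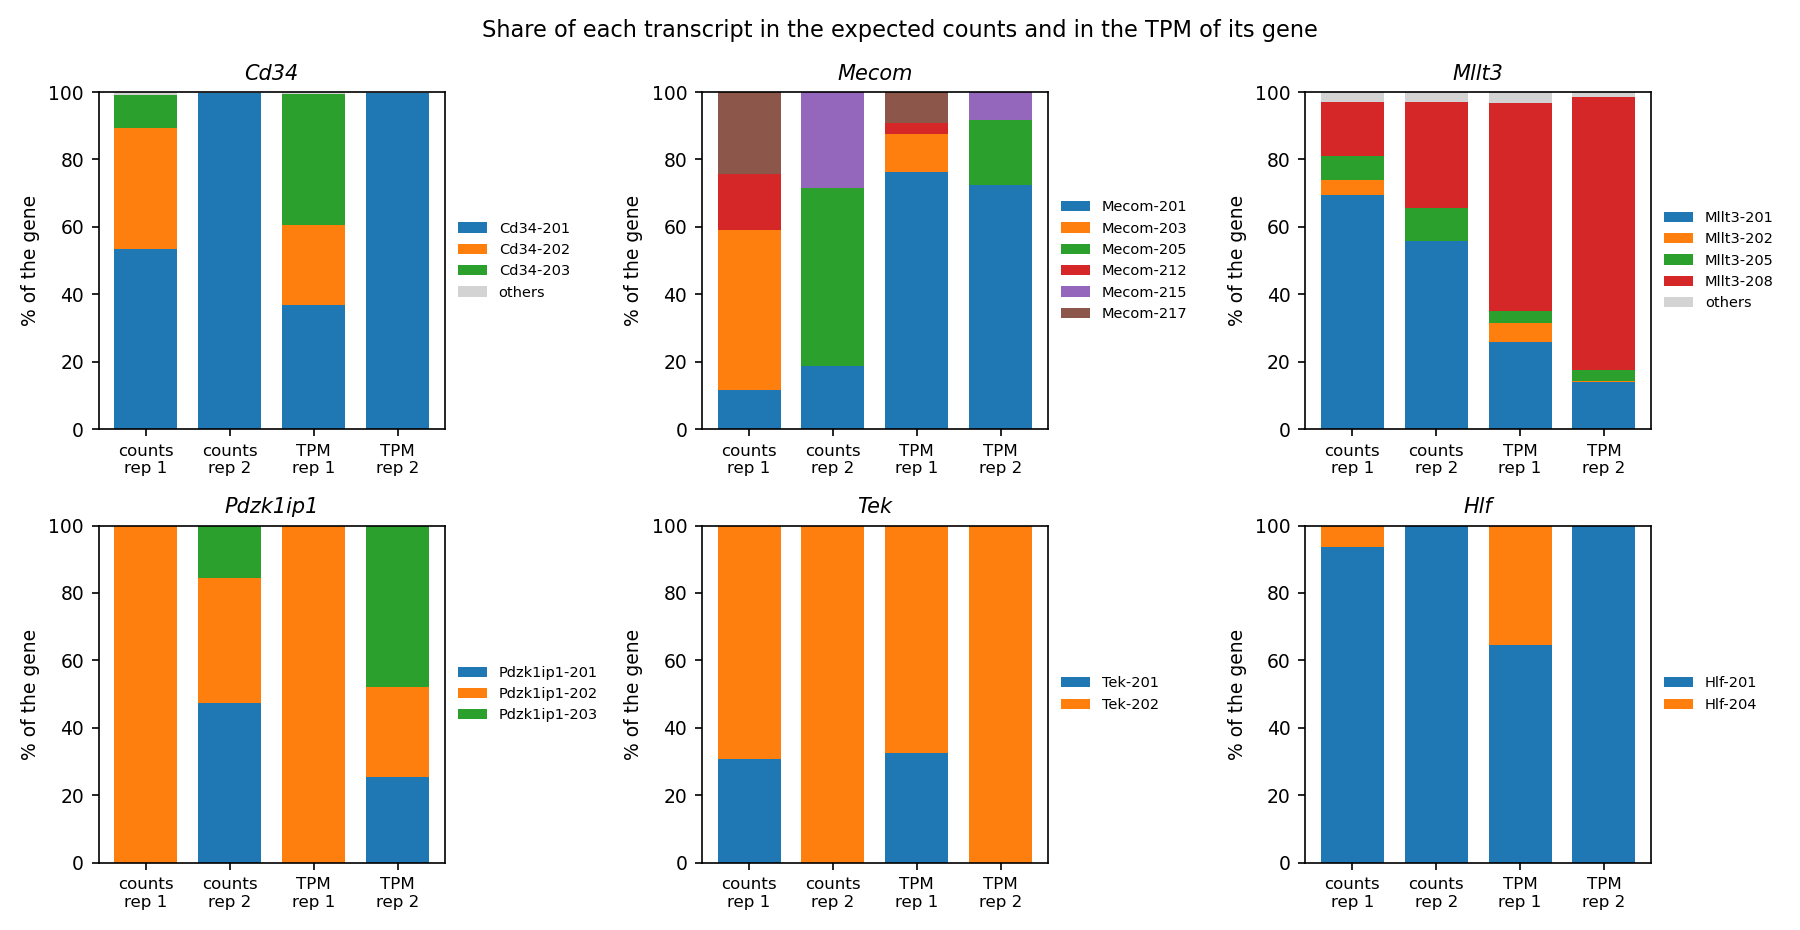
Share of each transcript in the expected counts and in the TPM of 6 of the genes, in percent, for replicate 1 and replicate 2. Colours are transcripts, and those under 5% in every bar are grey. Cd34 divides over 3 transcripts in replicate 1 and is nearly all Cd34-201 in replicate 2, and the short Mllt3-208 takes a larger share of TPM than of counts in both libraries.

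A list of 44 other stem and multipotent genes, 10 of which also stand in other lists, was set beside the 10. Of these, 23 reached 1 TPM in each library, against 39.4% of nuclear protein-coding genes, and 7 had 0 counts in both. Lmo2, a bridging factor of GATA and TAL1 complexes, led with 104.55 TPM in replicate 1 and 84.37 TPM in replicate 2. The tetraspanin gene Cd81 had 63.00 and 45.17, and the stem cell factor receptor gene Kit had 42.99 and 27.92. Bmi1, a polycomb gene, had 18.60 in replicate 1 and 19.14 in replicate 2. Of 36 with at least 20 counts, 11 were past 2-fold and higher in replicate 1, against 11.1% of all genes tested. Another 5 were past 2-fold and higher in replicate 2, against 9.84%. The median log2 CPM ratio was 0.36. The 5 higher in replicate 2 were Eng, Esam, Cdkn1c, Socs2 and Ghr, named after their values were seen.

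Cd34, Tek, Procr and Fgd5 are also known from endothelium and Angpt1 from megakaryocytes and stroma, and markers of those cells were read in the same libraries. The counts past 2-fold below stand against 11.1% of all genes tested for higher in replicate 1, and 9.84% for higher in replicate 2. Of 10 megakaryocyte markers, 5 of 9 with enough counts were past 2-fold and higher in replicate 1 and 1 in replicate 2. The latter was Gp9, with 23 counts in replicate 1 and 130 in replicate 2. The summed TPM of the 10 was 64.35 in replicate 1 and 25.04 in replicate 2, led by Pf4, Itga2b and Plek. The endothelial genes Cdh5 and Cldn5 had 0 counts in both libraries. The 10 endothelial markers summed to 16.04 TPM in replicate 1 and 18.82 TPM in replicate 2, led by Egfl7, Pecam1 and Plvap. Egfl7 stood at 8.50 TPM in replicate 1 and 13.57 TPM in replicate 2, and Pecam1 had 3.88 and 1.90. Of 7 with enough counts, Robo4 was past 2-fold and higher in replicate 1, and Esam in replicate 2. Robo4 had 56 counts in replicate 1 and 0 in replicate 2. The stromal genes Col1a1, Pdgfra, Dcn, Bglap and Kitl had 0 counts in both, and the 10 stromal markers summed to 2.39 in replicate 1 and 1.08 in replicate 2, led by Pdgfrb, Cxcl12 and Col1a2, with 3 of 4 with enough counts past 2-fold and higher in replicate 1 and 1 in replicate 2. Of 10 NK and T cell markers, 7 of 8 with enough counts were past 2-fold and higher in replicate 2, none was past 2-fold and higher in replicate 1, and they summed to 11.45 in replicate 1 and 38.19 in replicate 2, led by Nkg7, Gzma and Ccl5. Nkg7 was within 2-fold, with a log2 CPM ratio of 0.15. Cd3e and Cd3d had 0 counts in both. Granulocyte and monocyte markers summed to 65.97 in replicate 1 and 116.5 in replicate 2, led by S100a8, S100a9 and Ngp. Of the 10, 5 were past 2-fold and higher in replicate 1, which were Mpo, Elane, Prtn3, Ctsg and Cebpa. Another 4 were past 2-fold and higher in replicate 2, which were the 3 leading genes and Csf1r. Mast cell and basophil markers summed to 9.79 in replicate 1 and 3.01 in replicate 2, led by Cpa3, Ms4a2 and Fcer1a, with Mcpt8 and Tpsab1 at 0 counts in both. Of 6 with enough counts, 4 were past 2-fold and higher in replicate 1 and 2 in replicate 2. The latter were Hdc, with 45 counts in replicate 1 and 216 in replicate 2, and Cma1, with 0 and 26. Genes named in this paragraph by their direction were picked after their values were seen. None of the 8 MEP markers was past 2-fold. Their median log2 CPM ratio was -0.39, and 2 of the 8 had a ratio above 0. The part of these cells in the ratios of the 10 genes was not tested.

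**Figure D4:**
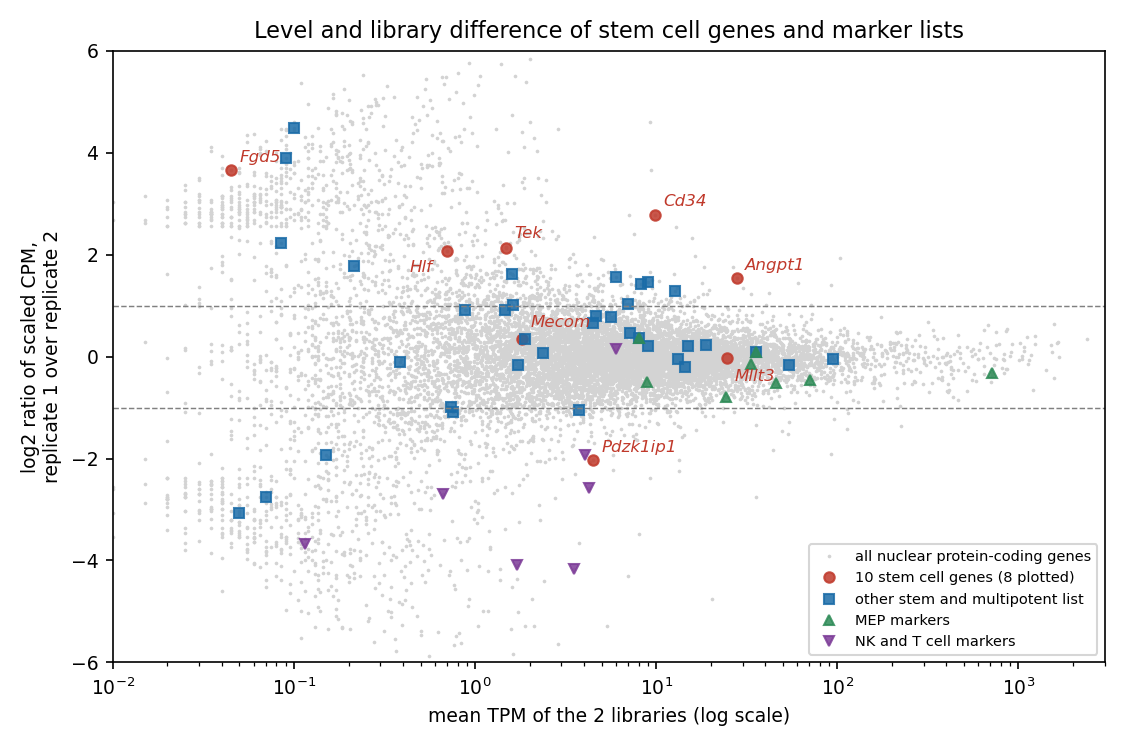
Mean TPM of the 2 libraries (log scale) against the log2 ratio of TMM-scaled CPM, replicate 1 over replicate 2. Grey points are all nuclear protein-coding genes, red circles the 8 stem cell genes with at least 20 counts, blue squares the other stem and multipotent genes, green triangles the MEP markers and purple triangles the NK and T cell markers, and dashed lines mark 2-fold. Cd34 and Angpt1 lie above most genes of their level, the MEP markers lie within 2-fold, and most NK and T cell markers lie below the lower line.

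Of the relatives of CD34, Podxl, which encodes podocalyxin, stood at 0.19 TPM in replicate 1 and 0.05 TPM in replicate 2 and was past 2-fold and higher in replicate 1, and Podxl2 had 0 counts in both. Of 8 genes of the protein C pathway, F2r, the thrombin receptor of platelets and their precursors in human, stood at 22.79 TPM in replicate 1 and 9.09 TPM in replicate 2, and Proc, the gene of protein C itself, had 0 counts in both. The TPM of Pros1 was 1.28 in replicate 1 and 0.04 in replicate 2, that of F2rl3 was 0.80 and 0.43, and that of Thbd was 0.47 and 0.37. Of 7 genes of the list with enough counts, 2 were past 2-fold and higher in replicate 1 and 1 in replicate 2.

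The genes whose pair of TPM values lay nearest were sought for Cd34, Angpt1 and Mllt3, the 3 of the 10 genes that averaged 5 TPM or more, among 5634 genes, by the Euclidean distance of log2(TPM + 1) over the 2 libraries. Nearest to Cd34 were Gm10260, with 12.73 TPM in replicate 1 and 1.35 TPM in replicate 2 at a distance of 0.49, and Adgrl4, with 13.19 and 1.98 at 0.53. Nearest to Angpt1 were Casp8ap2, with 41.81 and 12.41 at 0.09, and Faim, with 38.39 and 13.00 at 0.22. Their log2 CPM ratios of 0.17 and 0.65 were smaller than the 1.54 of Angpt1, so the likeness holds for TPM only. Nearest to Mllt3 were Dmac1, with 22.56 and 26.82 at 0.02, and Ddost, with 22.46 and 26.38 at 0.03. Their log2 CPM ratios of -0.58 and -0.57 lay further from 0 than the -0.04 of Mllt3, so this likeness too holds for TPM only. With 2 libraries, a pair of values is a thin basis for likeness.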

How the data were processed

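Gene and transcript tables of 2 total RNA libraries were used. Per the file headers, the authors deposited an expected count (estimated, not normalised), a TPM, an FPKM, a posterior mean TPM, bounds of a TPM interval and, per transcript, its percent of the gene's TPM. The deposited text files name build mm10 and GENCODE M4, and no source used here names the program that made the values. Symbols and coordinates came from GENCODE M21, on the same assembly, matched by gene ID without version (42462 matched, 884 did not). Counts were rounded, and TMM factors were computed with edgeR 4.0.16 in R 4.3.3 on genes reaching 10 counts in each library. Ratios took genes with at least 20 counts over both. They were tested on simulated data. Counting intervals are exact binomial intervals at 95%, and the floor for a count of 0 is 3 counts. Both cover counting error only. Promoter windows came from RefSeq (GRCm38.p6), and 8 members had one. Splice junctions were read from GENCODE M21. DESeq2 1.42.0 gave size factors for an alternative. Python 3.11.15 did the rest.

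The members, the marker and pathway lists and the rule for named genes were chosen with earlier results of these data known. The rule took all 10 members, the 4 highest genes of each list, the 3 highest of each marker list and those at 0 counts, and for each member with a mean TPM of at least 5 the nearest 2 genes. Alternatives were the posterior mean TPM, FPKM, TPM rescaled to nuclear protein-coding genes, other thresholds and pseudocounts, DESeq2 size factors, no filter, and leaving out each library. Part of the list around CD34 is not reported here.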

Additional observations from a re-analysis of the deposited data

How the results depend on the processing

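No paired analysis was possible because the study has 1 group. With the deposited TPM plus 1, the median log2 ratio of the members was 0.54, while the median of all genes moved to 0.22. By that measure 3 members were past 2-fold and higher in replicate 1, against a background of 5.5%. The cause was not tested. The median ratio was 0.99 with rescaled TPM plus 1, 1.63 with 0.5 CPM added, 1.32 with 1 CPM added and 1.53 with no filter, where Procr enters. The count of members past 2-fold and higher in replicate 1 was 4 with rescaled TPM (background 7.64%) and 6 with no filter (background 12.8%). It was 5 with DESeq2 size factors (background 11.1%), 0.5 CPM added (9.65%) and 1 CPM added (6.44%). Under every alternative 1 member was past 2-fold and higher in replicate 2, against backgrounds of 1.56% to 10.3%. The median level was 7.01 with rescaled TPM, a change of scale, and it was 0.94 without replicate 1 and 1.66 without replicate 2. The number of members at a TPM of at least 1 ranged from 5 to 7 with either library left out. With both libraries kept, it was 5 by posterior mean TPM and 6 by rescaled TPM. It was 5 at a threshold of 0.5 TPM and 7 at a threshold of 10 expected counts. The share of all genes in a single library or under these alternatives was not computed. No ratio called past 2-fold changed direction under the alternatives run. Of the values of single genes under the alternatives that keep both libraries, 45 moved by less than their spread or interval and 39 by more. The 39 include 7 levels as FPKM and 9 levels as rescaled TPM, whose scale differs from that of the deposited TPM. With 1 library left out a level is that of the other library alone, as given above. The values of Procr, Fgd5 and Ly6a are limited by their counts.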
